A study of Homo sapiens with 20 samples.

Results

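The HOX genes described are 38 protein-coding genes whose symbol is HOXA, HOXB, HOXC or HOXD followed by a number, out of 60623 genes listed for pancreatic progenitors (PPs) and 60624 listed for human islet-like organoids (hILOs). They were chosen by symbol alone. *HOXA* holds 10 of them (chr7:27100354-27200091, minus strand of GRCh38), *HOXB* 10 (chr17:48528526-48728750, minus strand), *HOXC* 9 (chr12:53938831-54056030, plus strand) and *HOXD* 9 (chr2:176092721-176190907, plus strand). All cells descended from MEL1 INS GFP/W, a human embryonic stem cell line with a GFP reporter in 1 allele of the insulin gene, either with no further edit (WT) or carrying a CRISPR-Cpf1 knockout of *ALKBH5* (A5-KO), the gene of an enzyme that removes the m6A mark from mRNA. The A5-KO line came from a picked colony, so the knockout and other properties of that clone cannot be told apart. Each genotype gave 2 hILO libraries and, for each of 0, 1, 2 and 3 h in actinomycin D (Act D, 1 µg/ml), 2 PP libraries, which makes 4 hILO and 16 PP libraries. Both genotypes received retinoic acid on the way to PPs, and hILOs were made from PPs as suspended aggregates. The study calls its replicates biological, but no label ties them to separate differentiations, so the tests measure the spread between 2 libraries of a group.

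HOX genes encode transcription factors that bind DNA through a homeodomain and give cells their position along the head-to-tail axis. Within a cluster the genes lie in the order in which they are used, so that low paralog numbers belong to anterior and high numbers to posterior levels, and genes with the same number in different clusters are paralogs. Retinoic acid is a classical inducer of the low-numbered genes, and the foregut endoderm that forms the pancreas lies at an anterior to middle level. Act D blocks transcription, so the level of an mRNA afterwards reflects how fast it is lost. Levels are given as CPM (reads of a gene scaled to the read total of its library) in PPs and as TPM (length-scaled share of a library) in hILOs. Levels of different genes are compared only as TPM or as CPM per kb of exon, and the PP and hILO tables, which were normalized separately, were not tested against each other.

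All 38 genes carry a homeobox of 180 bases. The stretch that codes the DNA-recognition helix is printed for *HOXA5* and *HOXB9*, the highest genes of PPs, whose A5-KO slopes under Act D lay at the 2 ends of those given below. Capitals mark bases that differ from *HOXA5*, and each stretch is 51 bases read from GRCh38 on the coding strand.
HOXA5 (chr7:27141892-27141942, minus): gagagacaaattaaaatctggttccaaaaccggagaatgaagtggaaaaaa
HOXB9 (chr17:48622927-48622977, minus): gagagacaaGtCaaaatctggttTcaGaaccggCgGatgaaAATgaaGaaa
*HOXB9* differed from *HOXA5* at 10 of these bases, and the whole homeoboxes were 61.7% identical. Identity between any 2 of the 38 homeoboxes ran from 47.8% to 91.1%, with a median of 81.7% within a paralog group and 60.6% between groups.

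*ALKBH5* was at 78.8 to 81.9 TPM for the WT and 3.42 to 4.16 TPM for the A5-KO hILO libraries, and at 149 to 172 CPM and 18.8 to 19.1 CPM in PPs at 0 h. The PP libraries held 30516384 to 35206514 reads, at which 3 reads, the limit that a count of 0 allows, came to 0.0852 to 0.0983 CPM. Such limits cover counting error only and take reads as independent. Of genes with 1 to 20 reads, the share with an even count ran from 38.9% to 67.6% between PP libraries. Whether both reads of a pair were counted separately was not tested. Of the 9 markers of PPs, 8 passed the filter at 0 h, whereas the insulin and glucagon genes were at 0 in the PP libraries at 0 h. The WT libraries at 2 h stood apart, with a median difference between replicates of 0.20 on the log2 scale over genes at 10 CPM or more, against 0.07 to 0.15 in the other PP groups.

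In PPs, HOX mRNA came mainly from the 3′ part of *HOXA* and from *HOXB*, while *HOXC* was low and *HOXD* close to absent. Per kb of exon, *HOXA* gave 59.2% and 57.8% of the signal summed over the 38 genes in the WT libraries at 0 h and 58.9% and 54.4% in the A5-KO libraries. *HOXB* gave 35.1% and 35.4% in WT and 37.5% and 42.2% in A5-KO. No *HOXC* gene exceeded 0.858 CPM in any PP library and no *HOXD* gene 0.262 CPM. Of the 38 genes, 10 had no read in any PP library and 12 had 3 reads or fewer in every one. Posterior genes were nearly silent, since of the 16 genes of paralog groups 9 to 13 only *HOXB9* and *HOXA9* rose above 0.2 CPM in any PP library. *HOXA9* did so in a single library, and the other was among the highest HOX genes of these cells. *HOXA9* and the genes given below as *HOXB2*, *HOXB4*, *HOXB5*, *HOXB6*, *HOXB8* and *HOXB13* are named although they fall below the levels set for naming, and were picked after their values were seen.

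Per kb of exon, *HOXA5* stood at the top in WT PPs with 2.79 ± 0.327 CPM per kb (SD, n = 2), and *HOXB9* followed with 2.13 ± 0.408. *HOXA3* was at 1.39 ± 0.140 CPM per kb. *HOXA7* at 0.865 ± 0.230, *HOXA4* at 0.716 ± 0.0265, *HOXA2* at 0.650 ± 0.0371 and *HOXB3* at 0.317 ± 0.0170 CPM per kb completed the named genes. Neighbours among these named genes differed by less than the sum of their SDs, apart from the steps from *HOXB9* to *HOXA3*, from *HOXA3* to *HOXA7*, from *HOXA4* to *HOXA2* and down to *HOXB3*. In A5-KO the first 3 places were the same, and *HOXB3* stood at 0.756 ± 0.161 CPM per kb. Dividing by the longest annotated transcript instead of the merged exons raised *HOXB3* to 0.559 in WT and 1.33 in A5-KO and *HOXA3* to 1.83 and 2.03 CPM per kb, so that *HOXA3* overtook *HOXB9* in A5-KO.

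In hILOs the picture narrowed to *HOXA*. This cluster held 89.1% and 88.7% of the TPM summed over the 38 genes for the WT libraries and 84.9% and 86.8% in the A5-KO libraries. In WT, *HOXA7* was at 3.75 ± 1.04 TPM (SD, n = 2), *HOXA4* at 3.46 ± 0.334 and *HOXA5* at 3.38 ± 0.906 TPM. *HOXA2* at 1.96 ± 0.156 and *HOXA3* at 1.46 ± 0.329 TPM came lower, and among the first 3 neighbours did not differ beyond their spread. *HOXB9*, among the highest HOX genes of PPs, was listed at only 0.101 to 0.353 TPM in the 4 hILO libraries. In turn *HOXB13*, the most posterior gene of its cluster, had no read in any of the 16 PP libraries, which in each allows up to the 3-read limit given above, yet was listed at 0.741 and 0.792 TPM for WT and 0.267 and 0.217 TPM for A5-KO hILOs. Of the 38 genes, 15 were listed at 0 in all 4 hILO libraries, and no *HOXC* or *HOXD* gene rose above 0.119 TPM.

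The knockout was then compared with WT in hILOs, where 5 of the 38 genes, all of *HOXA*, had a mean of at least 1 TPM and were tested. *HOXA5*, a gene of middle position in its cluster, was listed at 2.74 and 4.02 TPM for WT and at 6.83 and 6.18 TPM for A5-KO. The groups did not overlap, as upward in 24.3% of the genes tested. The log2 fold change on log2(TPM + 1) of 0.79 (s.e., standard error, 0.20) missed the limit (limma adjusted *p* = 0.0797). Of the 5 genes limma called none higher, against 2.7% of the 17300 genes tested (467 genes), and none lower, against 4.09% (707 genes). At an unadjusted *p* below 0.05 and a change over 1.5-fold, limma gave 1 higher and 0 lower, against 801 higher and 1272 lower of all genes tested.

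*HOXA3* was at 1.23 and 1.69 TPM for WT and 3.85 and 1.85 TPM for A5-KO, and 1 A5-KO library carried the difference of 0.60 (s.e. 0.33, limma adjusted *p* = 0.294). *HOXA4*, which lies between these genes, was at 3.70 and 3.23 TPM for WT against 2.63 and 2.01 TPM for A5-KO, with a log2 change of -0.43 (s.e. 0.19, limma adjusted *p* = 0.217). *HOXA2* (2.07 and 1.85 TPM for WT, 1.65 and 2.02 TPM for A5-KO) and *HOXA7* (3.01 and 4.48 TPM for WT, 3.25 and 2.93 TPM for A5-KO) overlapped between the genotypes. Neighbours of one cluster were therefore listed in different directions. The median over the 5 genes was -0.06, beside -0.06 over all genes tested. Exons of *HOXA7* share 62.5% of their bases with *HOXA-AS3* on the opposite strand. The paper gives default settings for alignment, but no source used here states how strand was treated when reads were assigned to genes. Those of *HOXA4* share 31.3% with a further annotated gene on the same strand, where strand separates no reads. Reads of such pairs therefore cannot be told apart.

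*HOTAIRM1*, a long noncoding RNA of the *HOXA* locus, was called higher in A5-KO hILOs, as were 2.7% of all genes tested. It was at 8.89 and 9.25 TPM for WT and 18.2 and 16.3 TPM for A5-KO hILOs, a log2 change of 0.86 (s.e. 0.10, limma adjusted *p* = 0.0182). Of the 20 other genes listed for the HOX loci, 2 were tested in hILOs, and *HOTAIRM1* was the one called higher. In PPs at 0 h it was at 1.78 and 1.24 CPM for WT and 2.16 and 1.55 CPM for A5-KO, where the groups overlapped and none of the 3 tested genes of that list was called by limma.

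**Figure D1:**
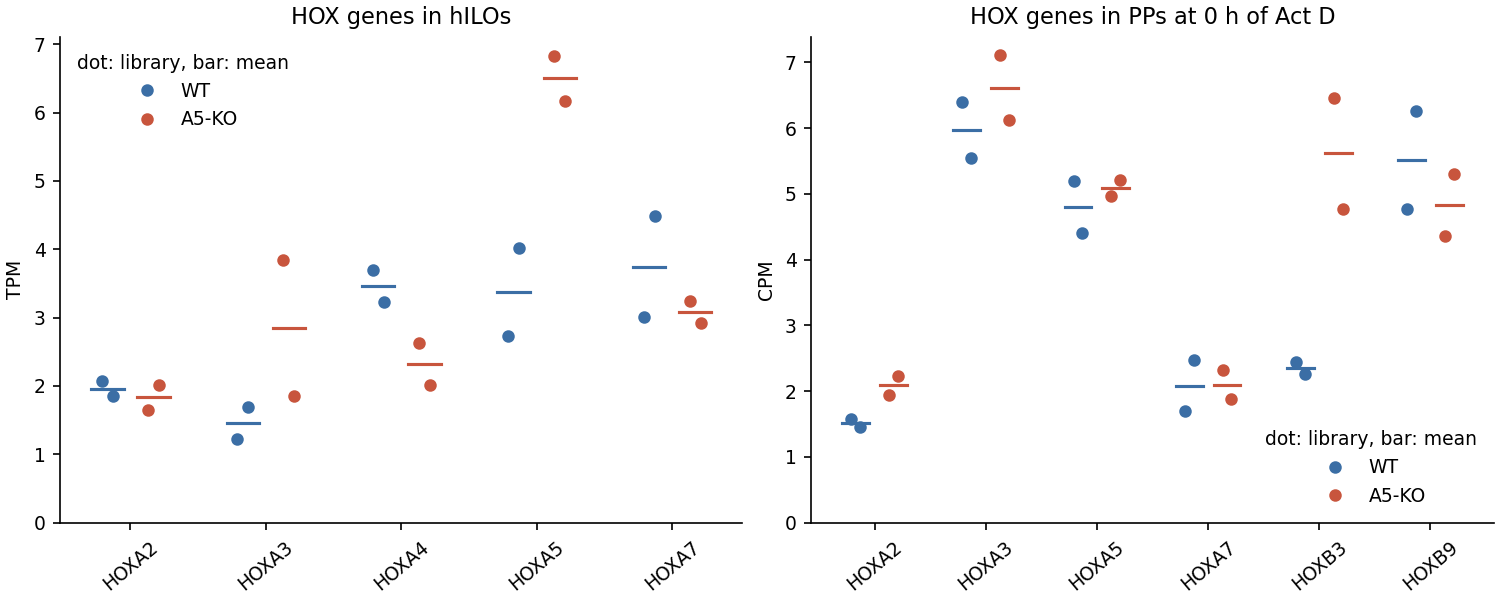
Level of the named HOX genes in each library (dots; bars are means of 2 libraries) for WT and A5-KO, in TPM in hILOs and in CPM in PPs at 0 h. In hILOs *HOXA5* lies at 2.74 and 4.02 TPM for WT and at 6.18 and 6.83 TPM for A5-KO, and in PPs *HOXB3* lies at 2.26 and 2.44 CPM for WT and at 4.77 and 6.46 CPM for A5-KO.

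In PPs at 0 h, 8 of the 38 genes had a mean of at least 1 CPM and were tested. *HOXB3*, an anterior gene of the *HOXB* cluster, was at 2.44 and 2.26 CPM for WT (85 and 73 reads) and at 6.46 and 4.77 CPM for A5-KO (209 and 163 reads). The A5-KO libraries both lay above both WT libraries, as they did for 29.0% of the 13911 genes tested. Its log2 fold change on log2(CPM + 1) was 0.97 (s.e. 0.19, limma adjusted *p* = 0.0232). This was the only HOX gene called higher, against 1.57% of the 13911 genes tested (218 genes), and none was called lower, against 1.13% (157 genes). No HOX gene was lower at an unadjusted *p* below 0.05, against 260 of all genes tested that also passed the 1.5-fold limit. On reads recovered from the CPM, edgeR and DESeq2 also called 1 higher and 0 lower. The call of *HOXB3* was lost in a fit of all 16 PP libraries (limma adjusted *p* = 0.0871) and with no filter on low values (0.176). Without replicate 2 of WT the limma adjusted *p* was 0.0536 (log2 fold change 0.93), and without replicate 1 of A5-KO it was 0.103 (0.79). Exons of *HOXB3* share 5.83% of their bases with *HOXB6* and 5.04% with the antisense gene *HOXB-AS1*.

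The *HOXA* genes showed no such step at 0 h. *HOXA5* was at 5.2 and 4.40 CPM for WT and 4.98 and 5.21 CPM for A5-KO, with a log2 change of 0.08 (s.e. 0.17). The WT and A5-KO libraries overlapped. *HOXA3*, a paralog of *HOXB3*, was at 6.40 and 5.55 CPM for WT and 7.11 and 6.12 CPM for A5-KO. *HOXA2* was at 1.58 and 1.46 CPM for WT and 1.95 and 2.23 CPM for A5-KO. The groups did not overlap, as upward in 29.0% of genes tested. The log2 fold change of *HOXA2* was only 0.29 (s.e. 0.19, limma adjusted *p* = 0.443). *HOXA4* (1.21 and 1.27 CPM for WT, 0.649 and 1.64 CPM for A5-KO), *HOXA7* (1.69 and 2.48 CPM for WT, 2.32 and 1.87 CPM for A5-KO) and *HOXB9* (4.77 and 6.26 CPM for WT, 4.36 and 5.30 CPM for A5-KO) overlapped as well. The median over the 8 genes was 0.10, beside 0.03 over all genes tested.

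*HOXB2* and *HOXB4* are anterior genes next to *HOXB3*, and *HOXB4* lies inside the annotated span of *HOXB3*. The 3 spans cover 64.0 kb (chr17:48540894-48604912), which also holds *HOXB5* and most of *HOXB6*. *HOXB5* was lower in both A5-KO hILO libraries than in both WT libraries, and both genes overlapped between the genotypes in PPs at 0 h. *HOXB2* was at 0.373 and 0.310 CPM for WT PPs at 0 h (13 and 10 reads) and at 0.989 and 1.32 CPM for A5-KO (32 and 45 reads). *HOXB4* was at 0.574 and 0.558 CPM for WT and 0.680 and 1.41 CPM for A5-KO. In hILOs, *HOXB2* was listed at 0 in both WT libraries and at 1.21 and 0.256 TPM for A5-KO, and *HOXB4* at 0 in both WT libraries and at 0.152 and 0.798 TPM for A5-KO. *HOXB3* was listed at 0.010 and 0.00739 TPM for WT and 0.0765 and 0.0885 TPM for A5-KO hILOs. These were the 3 HOX genes of 38 for which both A5-KO libraries stood above both WT libraries at both stages, and no HOX gene was lower at both. Of the genes above 0 in at least 1 library of each stage, which include 22 HOX genes, 5.46% were higher without overlap at both stages and 5.72% lower, and of the genes tested at both stages 8.34% were higher. *HOXB2* kept this order in all 5 conditions, the 4 Act D times included, as did 0.877% of the genes above 0 at both stages. Neither *HOXB2* nor *HOXB4* reached a mean of 1 CPM at 0 h, and with no filter on low values limma gave *HOXB2* a log2 change of 0.68 (s.e. 0.16, adjusted *p* = 0.164) and *HOXB4* 0.36 (s.e. 0.21, adjusted *p* = 0.565).

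**Figure D2:**
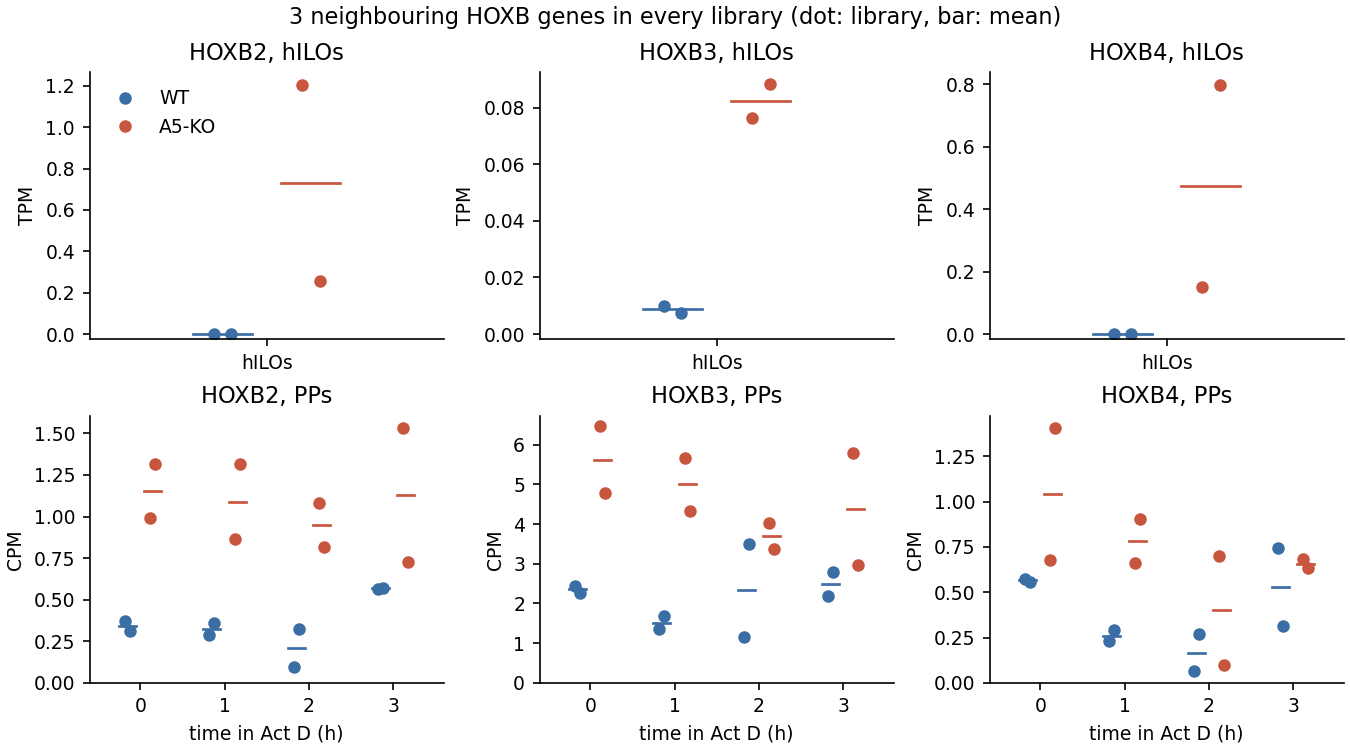
*HOXB2*, *HOXB3* and *HOXB4* in every library (dots; bars are means of 2 libraries), in TPM in hILOs (upper panels) and in CPM in PPs by time in Act D (lower panels). A5-KO libraries lie above WT libraries at 0 and 1 h and in hILOs for all 3 genes, and the order is kept at 2 and 3 h for *HOXB2*.

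Markers of other cell types moved with the genotype at both stages. Of 10 mesenchyme markers, 4 of 7 tested were called higher in A5-KO PPs at 0 h, with a summed level of 120 to 128 CPM for WT and 211 to 215 CPM for A5-KO. In hILOs 3 of 5 tested were called higher, with a sum of 11.5 to 19.4 TPM for WT and 49.3 to 54.5 TPM for A5-KO. Of 5 hepatic markers, 4 were called higher in PPs (sums of 693 to 704 CPM for WT and 1547 to 1572 CPM for A5-KO), and in hILOs 2 were higher and 1 lower (sums of 18386 to 18747 TPM for WT and 30595 to 30926 TPM for A5-KO). No marker of either list was at 0 throughout a group. Endocrine markers fell in A5-KO hILOs, with 4 of 7 called lower, 1 higher and sums of 34457 to 36774 TPM for WT and 26412 to 27622 TPM for A5-KO. Their part in the difference of *HOXB3* was not tested, and fewer cells of a type and less RNA per cell cannot be told apart in these bulk libraries. Of 6 intestinal, 8 neural and 4 endothelial markers, 4, 1 and 1 were tested in PPs at 0 h and limma called none. At an unadjusted *p* below 0.05, 3 intestinal markers were higher and 1 lower, no neural marker passed and 1 endothelial marker was higher. The 3 were *CDX2*, *VIL1* and *CDH17* (log2 changes of 0.49, 0.30 and 0.45, limma adjusted *p* = 0.0163, 0.0427 and 0.00652), which missed only the 1.5-fold limit. The intestinal sum was 591 to 618 CPM for WT and 791 to 818 CPM for A5-KO PPs. In hILOs the neural *TUBB3* was called lower, no intestinal marker was called and no endothelial marker passed the filter. Of the 8 PP markers tested at each stage, *ONECUT1* was called lower in A5-KO PPs at 0 h and none was called in hILOs. Of 4 pluripotency markers *LIN28A* was higher in A5-KO PPs and *SOX2* lower in A5-KO hILOs.

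Genes known to act with or upstream of HOX genes were compared between the genotypes in hILOs and in PPs at 0 h. Of all genes tested, 2.7% were called higher and 4.09% lower in hILOs, and 1.57% higher and 1.13% lower in PPs at 0 h. The TALE cofactors, homeodomain proteins of the PBX, MEIS and PKNOX families that bind DNA with HOX proteins, held 9 genes of which 7 were tested at each stage, and limma called 0 (medians of -0.34 in hILOs and -0.16 in PPs at 0 h). At an unadjusted *p* below 0.05, limma gave 1 higher and 1 lower in hILOs and 0 higher and 2 lower in PPs. *MEIS1* is named although it was not called. It was at 9.06 and 7.11 TPM for WT and 5.35 and 2.06 TPM for A5-KO hILOs, with a log2 change of -1.04 (s.e. 0.40, limma adjusted *p* = 0.174). Of 18 Polycomb and trithorax regulators, which hold HOX clusters in silent or active chromatin, *CBX2* was the only one called at these stages, lower in A5-KO hILOs (18.6 and 19.0 TPM for WT, 10.4 and 10.5 TPM for A5-KO, log2 fold change -0.79, s.e. 0.08, limma adjusted *p* = 0.0148). Of 15 genes for retinoic acid receptors and turnover, 9 were tested in hILOs, with *ALDH1A1*, an enzyme of retinoic acid synthesis, higher (log2 fold change 0.79, limma adjusted *p* = 0.00248) and the retinoic acid carrier *CRABP2* lower (log2 fold change -1.18, limma adjusted *p* = 0.0414). In PPs at 0 h limma called none of the 8 tested, with 1 higher and 1 lower at an unadjusted *p* below 0.05. Of the 6 ParaHox genes, relatives of the HOX clusters that include *PDX1*, 2 were tested in hILOs and 3 in PPs at 0 h, and limma called none (at an unadjusted *p* below 0.05, 1 higher in hILOs and 1 higher and 1 lower in PPs).

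Under Act D, 7 of the 38 genes were tested for a slope of log2(CPM + 0.1) over time. In A5-KO PPs 3 of these 7 fell, namely 3 of 4 *HOXA* genes and 0 of 3 *HOXB* genes. Whether the clusters differ was not tested. A mean of 2 CPM or more at 0 h, the level set for describing loss, was reached by *HOXA3*, *HOXB9*, *HOXA5*, *HOXB3* and *HOXA7* (6.29 down to 2.09 CPM over the 4 libraries), while *HOXA2* (1.80 CPM) and *HOXB8* (1.76 CPM) lay just below it. CPM rests on the total of each library, so a slope is relative to the other mRNAs. The share of 3 in 7 lay near the 37.1% of the 13620 genes tested that were called falling in A5-KO (5054 genes). No HOX gene rose, against 7.44% (1013 genes). The calls of *HOXA2* and *HOXA3* were lost without either A5-KO library at 0 h, as given below. Scaling by median of ratios turned those totals into 3646 falling and 3188 rising, with the same number of HOX genes falling.

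*HOXA5* had the steepest slope in A5-KO over the 4 times. In A5-KO it went from 4.98 and 5.21 CPM at 0 h to 1.96 and 1.78 at 1 h, 1.2 and 0.393 at 2 h, then 0.596 and 0.379 CPM at 3 h. In WT it went from 5.2 and 4.40 CPM to 1.89 and 2.73 at 1 h, 1.28 and 1.90 at 2 h, then 1.97 and 2.59 CPM at 3 h. Both genotypes thus dropped within 1 h (changes of -1.40 in A5-KO and -1.04 in WT from 0 and 1 h alone, limma adjusted *p* = 0.000529 and 0.00565). Later A5-KO libraries were lower still, whereas the WT libraries at 1 and 3 h overlapped. The slope was -1.08 per h in A5-KO (s.e. 0.15, limma adjusted *p* = 4.44e-05) and -0.37 per h in WT (s.e. 0.15, limma adjusted *p* = 0.354). The slopes themselves differed by -0.71 per h (s.e. 0.22, limma adjusted *p* = 0.0739), which missed the limit. The difference was called without replicate 1 of WT at 0 h (-0.82, limma adjusted *p* = 0.0324), without replicate 1 of WT at 2 h (-0.76, 0.0292), without both WT libraries at 2 h (-0.78, 0.0313) and from 0 and 3 h alone (-0.71, 0.00474).

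*HOXA3* lost most of its signal in the first hour in both genotypes. It went from 7.11 and 6.12 CPM to 2.13 and 1.61 at 1 h, 1.69 and 1.21 at 2 h, then 2.47 and 1.83 CPM at 3 h in A5-KO, and from 6.40 and 5.55 CPM to 2.17 and 2.63 at 1 h, 2.57 and 5.26 at 2 h, then 3.58 and 2.12 CPM at 3 h in WT. Every later library but replicate 2 of WT at 2 h lay well below the 0 h libraries. Over the first hour alone the fall was 1.78 on the log2 scale in A5-KO (a change of -1.78, limma adjusted *p* = 4.497e-05) and 1.28 in WT (a change of -1.28, limma adjusted *p* = 0.000797). Over all 4 times the slope was -0.51 per h in A5-KO (s.e. 0.18, limma adjusted *p* = 0.0303) and -0.27 in WT (s.e. 0.18, limma adjusted *p* = 0.518), and the difference of -0.25 was not called. Without replicate 1 or without replicate 2 of A5-KO at 0 h the A5-KO slope was -0.35 or -0.39 and was not called (limma adjusted *p* = 0.211 and 0.160). *HOXA2* in A5-KO went from 1.95 and 2.23 CPM to 0.682 and 0.822 CPM at 3 h, a slope of -0.48 per h (s.e. 0.17, limma adjusted *p* = 0.0259), and in WT had 1.07 and 0.821 CPM at 3 h and a slope of -0.17 (limma adjusted *p* = 0.653). It too was not called without replicate 1 or replicate 2 of A5-KO at 0 h (limma adjusted *p* = 0.0877 and 0.109).

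The A5-KO slopes of the other 4 genes were closer to 0. *HOXB9* stayed between 4.75 and 6.26 CPM in the 8 WT libraries and between 4.29 and 6.52 CPM in the 8 A5-KO libraries, with slopes of 0.01 per h (s.e. 0.07) in WT and 0.06 (s.e. 0.07) in A5-KO. *HOXB3* in A5-KO went from 6.46 and 4.77 CPM to 5.79 and 2.97 CPM at 3 h, a slope of -0.16 (s.e. 0.14, limma adjusted *p* = 0.343), beside 0.06 in WT. *HOXA7* had slopes of -0.01 in WT and -0.13 in A5-KO (s.e. 0.15 each), and *HOXB8* of 0.02 and -0.10 (s.e. 0.13 each). None of these 8 slopes was called. *HOXA3* and *HOXB3* are paralogs, and in A5-KO the former had a slope with an adjusted *p* below 0.05 and the latter did not. The difference between the genes was not tested.

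**Figure D3:**
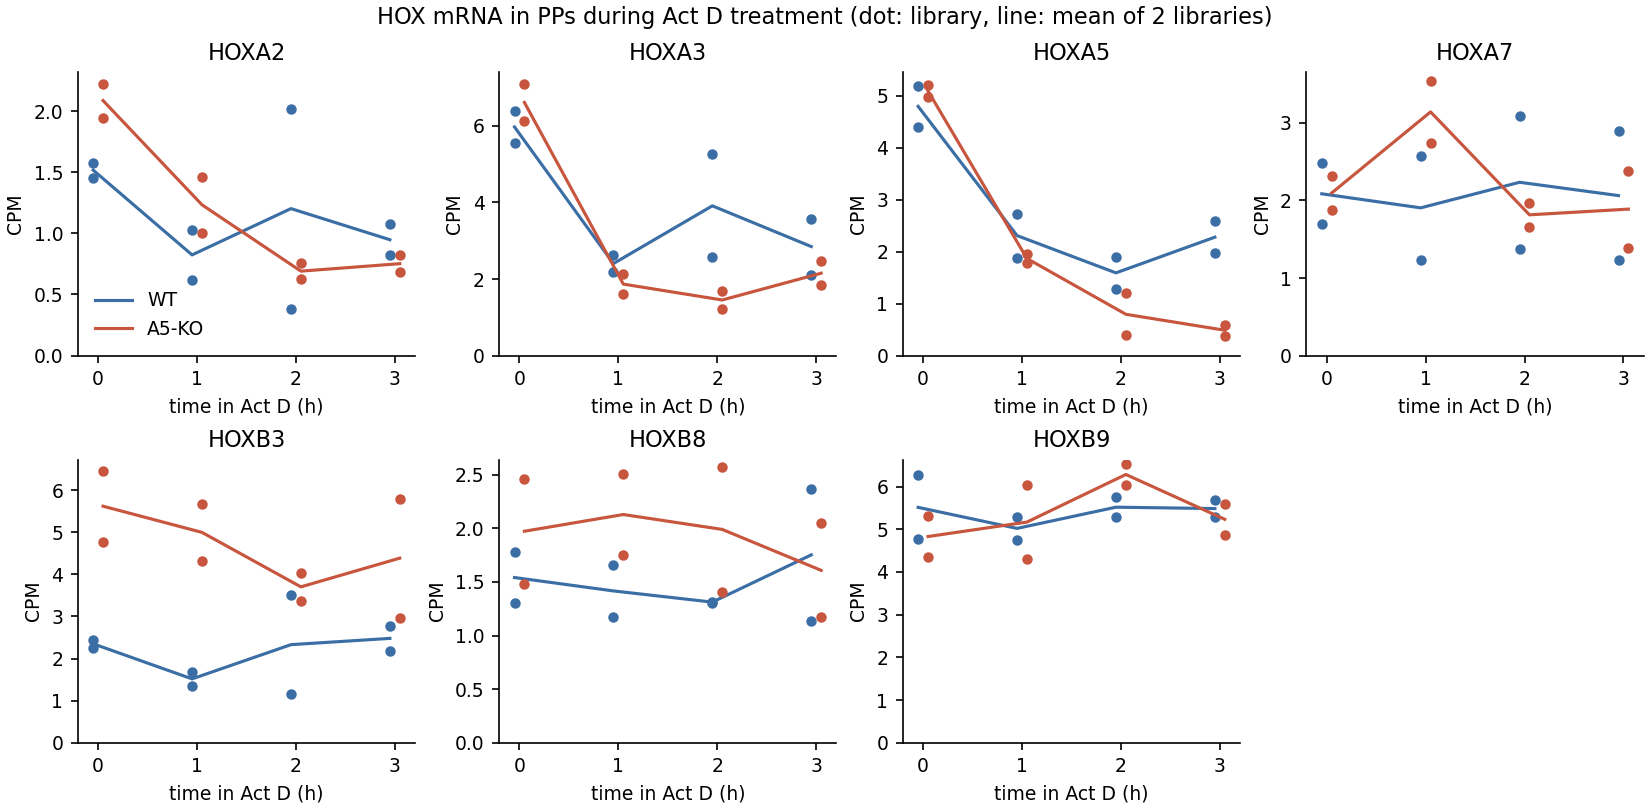
CPM of 7 tested HOX genes in PPs over 3 h in Act D (dots are libraries, lines join means of 2 libraries) for WT and A5-KO. *HOXA5* reaches 0.379 and 0.596 CPM at 3 h in A5-KO against 1.97 and 2.59 CPM for WT, while *HOXB9* stays between 4.29 and 6.52 CPM throughout.

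In WT, no HOX gene was called falling, against 0.11% of genes tested (15 genes), and none rising, against 0.132% (18 genes, and 12 falling and 28 rising with median-of-ratios scaling). At an unadjusted *p* below 0.05, limma gave 1 falling and 0 rising, against 1554 falling and 265 rising of the 13620 genes tested. On recovered reads edgeR called 0 HOX genes. From 0 and 1 h alone, *HOXA3* and *HOXA5* were called falling in WT (changes of -1.28 and -1.04), beside 3512 of all genes tested. For the difference of slopes, no HOX gene was called as falling faster in A5-KO, against 2.61% of genes tested (355 genes), or slower, against 0.0661% (9 genes). At an unadjusted *p* below 0.05, limma gave 1 faster (*HOXA5*) and 0 slower, against 2725 faster and 322 slower of the 13620 genes tested. For this difference edgeR called 0 HOX genes. The median difference over the 7 genes was -0.22 per h, beside -0.07 over all genes tested.

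Genes related to HOX also fell in A5-KO PPs, as did many others (37.1% of those tested). Of the 7 TALE cofactors tested 6 fell, of 16 Polycomb and trithorax regulators 12, and of 3 ParaHox genes *PDX1* and *CDX2*. Of 8 genes for retinoic acid receptors and turnover, 4 fell and *ALDH1A1* and *ALDH1A2* rose. In the HOX loci themselves, *HOTAIRM1* (slope -0.48 per h, s.e. 0.12, limma adjusted *p* = 0.00467) and *HOXA-AS2* (-0.40, s.e. 0.12, limma adjusted *p* = 0.0139), noncoding RNAs of the *HOXA* cluster, were the 2 of 3 tested genes that fell. In WT limma called none in these 5 lists, with 10 falling and 1 rising at an unadjusted *p* below 0.05. Of the 8 PP markers tested, 7 fell in A5-KO. In WT only the slope of *ONECUT1* was called, and all 8 were negative at an unadjusted *p* below 0.05 (median -0.39 per h).

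**Figure D4:**
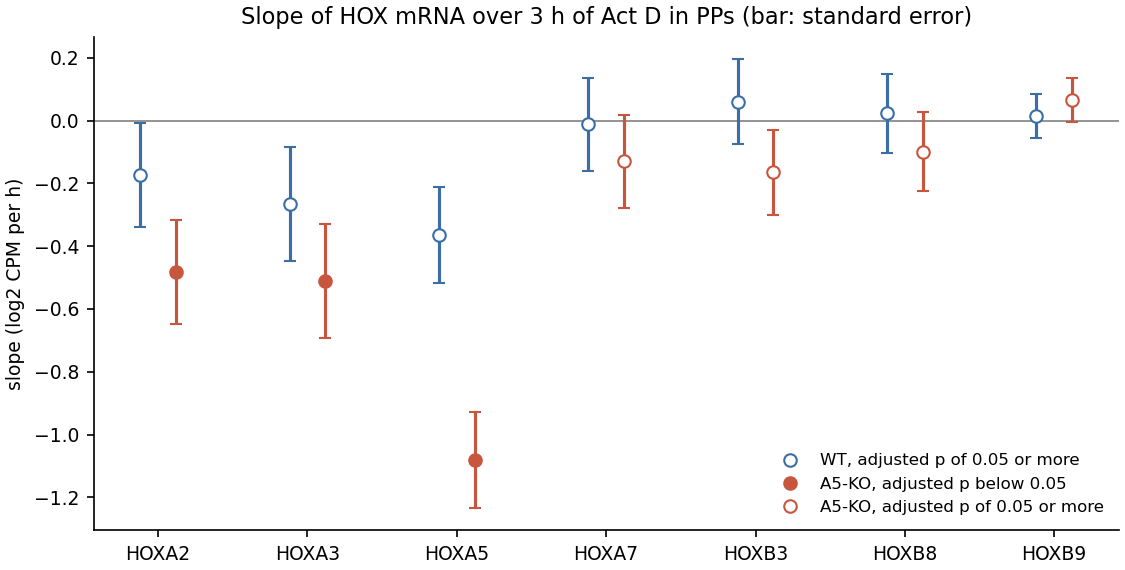
Slope of log2(CPM + 0.1) per h of Act D for 7 HOX genes in WT and A5-KO PPs (points; bars are standard errors from limma, filled points have an adjusted *p* below 0.05). *HOXA5* in A5-KO lies lowest at -1.08 per h and *HOXB9* lies near 0 in both genotypes.

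The genotypes were also compared at each later time. At 1 h, *HOXB3* was at 1.34 and 1.69 CPM for WT and 5.67 and 4.32 CPM for A5-KO, a log2 change of 1.25 (s.e. 0.30, limma adjusted *p* = 0.0194), and was the only HOX gene called, against 2.94% of 13620 genes higher (400 genes) and 1.15% lower (156 genes). Leaving out any library at 1 h ended this call (limma adjusted *p* from 0.0765 to 0.160). At 2 h, *HOXA3* was called lower in A5-KO (log2 fold change -0.95, s.e. 0.26, limma adjusted *p* = 0.0254), against 4.24% lower (577 genes) and 2.66% higher (362 genes). The call ended without replicate 2 of WT at 2 h (-0.55, limma adjusted *p* = 0.295), and likewise without replicate 1 or 2 of A5-KO at 2 h (-1.09 and -0.81, limma adjusted *p* = 0.0778 and 0.189). The number of genes lower at 2 h was itself 1930 and 116 without replicate 1 and 2 of WT, and 148 and 103 without replicate 1 and 2 of A5-KO. Without replicate 1 of WT at 2 h *HOXA2* joined it (-0.84, limma adjusted *p* = 0.0183), and without replicate 2 *HOXB3* was called higher (1.12, limma adjusted *p* = 0.0324). Median-of-ratios scaling changed the totals at 2 h to 395 lower and 486 higher.

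At 3 h, *HOXA5* (log2 fold change -1.14, s.e. 0.23, limma adjusted *p* = 0.00148) was called lower in A5-KO, against 17.7% lower (2411 genes) and 1.15% higher (157 genes). With a pseudocount of 0.1 in place of 1, the value of *HOXA5* was -2.03, and edgeR on recovered reads gave -2.07. *HOXA5* was called whichever library was left out. Scaling mattered at this time. The median over all genes was -0.13 with CPM as deposited and -0.01 with median-of-ratios scaling, and the calls became 1867 lower and 372 higher. *HOXA5* then stood at -1.08, and the same number of HOX genes was called. For *HOXB3* the values at 3 h were 2.18 and 2.78 CPM for WT and 5.79 and 2.97 CPM for A5-KO, a log2 change of 0.58 (s.e. 0.30, limma adjusted *p* = 0.159).

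Related genes were called lower in A5-KO at 2 h and 3 h of Act D, when 4.24% and 17.7% of all genes tested were called lower. The total at 2 h changed widely when a library was left out, as given above. Of the 16 Polycomb and trithorax regulators tested, 7 were lower at 2 h and 7 at 3 h, and of the 7 TALE cofactors 3 at each of these times, *MEIS1* and *PKNOX2* among them at both. At 3 h the ParaHox genes *PDX1* and *CDX2* and the retinoic acid genes *RARA*, *RARG* and *DHRS3* were also lower, as were all 8 PP markers tested.

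The 3′ untranslated regions (UTRs) were searched on the transcript strand for the letters ATTTA and TATTTAT, cores of AU-rich elements known to speed mRNA loss, and for GGACT, a form of the m6A motif. TATTTAT contains ATTTA, so such sites count under both. ATTTA was present in 73.9%, TATTTAT in 36.6% and GGACT in 63.5% of the 3′ UTRs of 12208 genes. Of the genes that fell in A5-KO, *HOXA2* held 0, 0 and 0 of the 3 motifs, *HOXA3* 6, 4 and 0 and *HOXA5* 1, 1 and 0. Of the others, *HOXA7* held 2, 1 and 2, *HOXB3* 6, 3 and 2, *HOXB8* 1, 0 and 1 and *HOXB9* 2, 0 and 0. Over the whole transcript GGACT was present in 91.8% of the 12208 genes. There *HOXA2*, *HOXA3* and *HOXA5* held 2, 1 and 2, and *HOXA7*, *HOXB3*, *HOXB8* and *HOXB9* held 2, 3, 2 and 0. Motif counts thus overlapped between the genes that were called falling and the others. The 3′ UTRs of these 7 genes were 372 to 1744 bases long, taken from 1 transcript per gene. The TATTTAT site of *HOXA5*, which had the steepest slope, and 1 of the 3 of *HOXB3*, which differed most between the genotypes at 0 h, are shown in capitals within their surroundings in GRCh38, on the coding strand.
HOXA5 (chr7:27141576-27141602, minus, 243 bases after the stop codon): tgttttaactTATTTATatgaagcaag
HOXB3 (chr17:48549258-48549284, minus, 1060 bases after the stop codon): ttttcatataTATTTATtggttatagc
A match is a description of these letters and no measured site.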

How the data were processed

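RNA-seq of WT and A5-KO hILOs (2 libraries each) and of PPs at 0, 1, 2 and 3 h of Act D (2 libraries for each genotype and time) was analysed, with groups and replicate numbers from the sample labels. For hILOs the authors aligned reads to GRCh38 with HISAT2 (2.1.0) and deposited TPM from StringTie summed by gene. For PPs the authors deposited CPM per gene after removing the ERCC spike-ins. The read counter, its strand setting and the annotation release are not given in the sources used here. At least 99.97% of CPM values were whole multiples of 1 read, with a tolerance of 0.01, which gave back the reads. TPM keeps no depth.

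Genotypes were compared with limma (3.58.1, under R 4.3.3, trended eBayes) on log2(value + 1) for genes averaging at least 1, and calls needed both a change over 1.5-fold and a *p* below 0.05 after Benjamini-Hochberg adjustment across all genes tested. Genotypes at 1, 2 and 3 h came from a fit of all 16 PP libraries. Act D slopes came from limma on log2(CPM + 0.1), where each genotype had its own line over time. edgeR (4.0.16) and DESeq2 (1.42.0) on recovered reads were alternatives, as were the pseudocount, the filter, median-of-ratios scaling, the replicate block, fewer times and each library left out. The conversion by spike-ins was not repeated. An exact permutation test of 2 against 2 cannot go below a two-sided *p* of 0.333. Coordinates, exon lengths and sequences came from GENCODE (GRCh38). The fits were tested on simulated data.

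HOX genes averaging at least 1 TPM in either hILO genotype or 2 CPM in either PP genotype at 0 h were named, and from the lists of related genes at most 3 in each direction. The HOX genes and all lists were chosen with earlier results of these data known. A further HOX gene is not reported here, and counts and sums over HOX genes leave it out.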

Additional observations from a re-analysis of the deposited data

Results flagged for a closer look

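For *HOXA5* the contrast of A5-KO with WT differed between 0 h and 3 h of Act D. The difference between the contrasts at 3 h and at 0 h was -1.21 (standard error 0.33, limma adjusted *p* = 0.0178), from 0.08 at 0 h to -1.14 at 3 h. All pairs of times were compared for each tested HOX gene, and no other comparison had a limma adjusted *p* below 0.05. The difference of slopes over all times missed the limit (-0.71 per h, limma adjusted *p* = 0.0739). The share of all genes with such a shift is not given here. Of all genes tested, 17.7% were called lower in A5-KO at 3 h and 1.13% at 0 h.

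Between the stages, *HOXA3* and *HOXA5* were listed higher in both A5-KO than in both WT hILO libraries, but in the opposite order in PPs under Act D. In PPs both A5-KO libraries lay below both WT libraries for *HOXA3* at 1 h (log2 fold change -0.25, not called) and 2 h (-0.95), and for *HOXA5* at 2 h (-0.56, not called) and 3 h (-1.14). Neither gene was called in hILOs. The same lack of overlap downward held for 23.3%, 37.5% and 46.0% of all genes tested at 1, 2 and 3 h, and upward for 24.3% in hILOs. These differences between hILOs and PPs were not tested, because the tables were normalized separately and hILOs had no Act D.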

How the results depend on the processing

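Numbers of HOX genes called changed as follows. With no filter on low values, which changes the genes tested, 0 were higher at 0 h and at 1 h, 0 were lower at 2 h and 1 fell in A5-KO under Act D. With a replicate block no count of HOX genes moved, with 0 higher in hILOs and 1 at 0 h. Same-numbered libraries had correlations of deviations of 0.04 in hILOs and 0.29, -0.02, -0.11 and 0.0002 in PPs at 0, 1, 2 and 3 h, so the numbers were not taken to pair them. With all 16 PP libraries in a single fit, 0 were higher at 0 h. From 0 and 1 h alone, 2 fell in WT, from 0 and 3 h alone 2 fell in WT and 1 fell faster in A5-KO, and from 0, 1 and 2 h 1 fell in WT. Without both WT libraries at 3 h, 1 fell in WT, and without both at 2 h, 1 fell faster in A5-KO (both chosen after seeing the data). Leaving out each library in turn gave 0 to 0 higher in hILOs, 0 to 1 higher at 0, 1 and 2 h, 0 to 2 lower at 2 h, 1 to 1 lower at 3 h, 1 to 3 falling in A5-KO and 0 to 1 falling faster in A5-KO. Totals over all genes, given as higher and lower in A5-KO (rising and falling for slopes), also moved by over 1.5 times. In hILOs they went from 467 and 707 to 143 and 187 with no filter and 289 and 385 with the block, at 0 h from 218 and 157 to 87 and 77 and to 365 and 266, at 1 h from 400 and 156 to 230 and 98 with no filter, at 2 h from 362 and 577 to 270 and 175 with no filter, and at 3 h from 157 and 2411 to 396 and 2062 with edgeR. A5-KO slopes went from 1013 and 5054 to 3032 and 3712 with edgeR and 1575 and 5747 from 0 and 3 h. WT slopes went from 18 and 15 to 9 and 7 with no filter, 9 and 8 with the block, 28 and 12 with edgeR, 293 and 3512 from 0 and 1 h, 223 and 2199 from 0 and 3 h, 438 and 2722 from 0, 1 and 2 h and 413 and 2479 without both WT libraries at 3 h. Differences of slopes (slower and faster in A5-KO) went from 9 and 355 to 0 and 0 with no filter, with the block and without both WT libraries at 3 h, to 8 and 165 with a pseudocount of 1, 5 and 104 with median-of-ratios scaling, 51 and 3 from 0 and 1 h, 290 and 2739 from 0 and 3 h, 16 and 0 from 0, 1 and 2 h and 58 and 1410 without both WT libraries at 2 h. Leaving out each library in turn gave totals of 83 to 118 and 96 to 203 in hILOs, 127 to 238 higher at 0 h, 187 to 485 and 61 to 357 at 1 h, 211 to 375 and 103 to 1930 at 2 h, 108 to 244 and 1702 to 2524 at 3 h, 441 to 1132 and 3828 to 5264 for A5-KO slopes, 0 to 17 and 0 to 22 for WT slopes and 0 to 62 and 0 to 1442 for their differences. Where leaving out a library leaves 1 library in a group, it is assumed to vary like the others. No estimate called under any setting changed sign. Alternatives were examined for HOX genes and for totals over all genes only. Calls of markers and of genes related to HOX, such as *HOTAIRM1* and *CBX2*, rest on the main setting. Causes were not tested. HOX levels were low, with 73 to 230 reads a library at 0 h for the genes of 2 CPM or more except *HOXA7* (59 to 80), so that small differences could not be detected.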
